A study of Homo sapiens with 24 samples.

Results

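The immediate early transcription factors studied here are 10 genes chosen by name: FOS, FOSB, FOSL1, JUN, JUNB, ATF3, EGR1, NR4A1, IER2 and IER3. Each was found by its symbol in the table of FPKM values (fragments scaled to transcript length and library size) of A375 cells, so the set is 10 of 25268 genes. A375 is an established line of human malignant melanoma. Cells received DMSO, the solvent, or nucleotides, or A771726 at 25 µM, or A771726 at 25 µM with nucleotides. Each treatment was given for 24 or 48 h, with 3 libraries in each of the 8 groups. All groups share the line, the culture medium with serum and the extraction of washed cells with an added enzyme, per the labels. Separate cultures are not stated for the 3 libraries of each group, so a p-value sets a difference against the spread among libraries, which may be technical. The labels name neither the nucleotides nor their dose.

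Immediate early genes are transcribed within minutes of a growth factor, stress or damage signal, from promoters that are held ready and without prior protein synthesis. FOS and JUN proteins pair to form AP-1, a dimer that binds DNA and relays kinase signals such as those of ERK and JNK to secondary genes. In melanoma lines with an activating BRAF mutation, such as A375, ERK signalling is constantly on. A771726, also called teriflunomide, inhibits dihydroorotate dehydrogenase and so blocks the making of pyrimidine nucleotides. The group with both agents asks which changes under A771726 are also seen when nucleotides are added.

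The promoters printed here are those of the 3 genes that rose under A771726 and of 2 genes that share motifs with them or carry the serum response core. They run from 250 bases before to 50 bases after the start, as RefSeq gives them on GRCh38.p14, all on the plus strand, and capitals mark the motifs found. FOS lies at chr14:75278578-75278877, FOSB at chr19:45467746-45468045 and EGR1 at chr5:138465229-138465528. ATF3 has a first start at chr1:212565157-212565456 and a second at chr1:212614768-212615067, and NR4A1 likewise at chr12:52022582-52022881 and chr12:52037465-52037764.
FOS: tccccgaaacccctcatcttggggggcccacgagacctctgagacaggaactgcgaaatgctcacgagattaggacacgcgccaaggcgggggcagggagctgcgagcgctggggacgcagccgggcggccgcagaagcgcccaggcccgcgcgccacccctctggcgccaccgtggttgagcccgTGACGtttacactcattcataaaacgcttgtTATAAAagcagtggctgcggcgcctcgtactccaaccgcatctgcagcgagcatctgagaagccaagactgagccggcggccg
FOSB: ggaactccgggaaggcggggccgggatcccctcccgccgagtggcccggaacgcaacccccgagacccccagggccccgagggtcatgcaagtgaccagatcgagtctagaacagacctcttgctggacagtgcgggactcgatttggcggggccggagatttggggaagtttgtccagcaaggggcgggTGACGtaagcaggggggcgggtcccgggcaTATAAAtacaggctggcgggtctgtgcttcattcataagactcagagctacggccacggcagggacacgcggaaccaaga
EGR1: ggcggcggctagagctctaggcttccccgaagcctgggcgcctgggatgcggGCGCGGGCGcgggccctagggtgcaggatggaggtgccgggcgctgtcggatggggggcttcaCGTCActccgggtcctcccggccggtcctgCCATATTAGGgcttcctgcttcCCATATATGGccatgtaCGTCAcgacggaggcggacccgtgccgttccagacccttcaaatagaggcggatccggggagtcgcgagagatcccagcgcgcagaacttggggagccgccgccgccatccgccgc
ATF3, first start: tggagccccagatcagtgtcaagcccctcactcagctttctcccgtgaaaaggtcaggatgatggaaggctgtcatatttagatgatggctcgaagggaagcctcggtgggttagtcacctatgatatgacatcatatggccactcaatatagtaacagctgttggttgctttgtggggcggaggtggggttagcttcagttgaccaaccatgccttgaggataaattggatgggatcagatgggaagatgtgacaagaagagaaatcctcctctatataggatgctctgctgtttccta
ATF3, second start: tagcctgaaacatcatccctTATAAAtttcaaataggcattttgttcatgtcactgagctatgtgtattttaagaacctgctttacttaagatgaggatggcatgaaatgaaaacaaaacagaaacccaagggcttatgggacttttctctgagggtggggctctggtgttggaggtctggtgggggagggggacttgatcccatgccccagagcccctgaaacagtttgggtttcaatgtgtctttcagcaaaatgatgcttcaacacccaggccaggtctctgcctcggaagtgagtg
NR4A1, first start: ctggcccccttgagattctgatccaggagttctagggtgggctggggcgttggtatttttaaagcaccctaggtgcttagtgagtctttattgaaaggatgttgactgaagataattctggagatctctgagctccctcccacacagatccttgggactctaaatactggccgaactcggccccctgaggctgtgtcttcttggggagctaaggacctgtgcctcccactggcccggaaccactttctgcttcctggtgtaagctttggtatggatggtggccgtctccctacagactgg
NR4A1, second start: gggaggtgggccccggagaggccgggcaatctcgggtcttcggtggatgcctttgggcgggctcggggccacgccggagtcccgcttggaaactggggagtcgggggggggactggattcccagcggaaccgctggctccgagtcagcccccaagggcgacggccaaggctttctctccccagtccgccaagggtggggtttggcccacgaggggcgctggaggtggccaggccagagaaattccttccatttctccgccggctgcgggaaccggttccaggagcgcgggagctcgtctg

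Windows were given for 8 of the 10 genes; FOSL1 and IER3 were not matched. All motifs were searched on both strands, and a position is that of the motif's first base counted from the start. The CRE core TGACG, to which CREB and ATF proteins bind, was in 6 of the 8, namely FOS, FOSB, JUN, JUNB, EGR1 and IER2, against 24.55% of all 35116 RefSeq windows of this length. It lies at position -64 in FOS and at -60 in FOSB. The TATA box TATAAA was in 4 of the 8, against 11.53% of all windows, at -33 in FOS and at -30 in FOSB. Within these windows, which end 250 bases before the start, the CArG box, the core of the serum response element, was in EGR1 alone. It lay there at -105 and -83, and 1.29% of all windows hold it. CArG boxes further upstream, in FOS or any other gene, would not have been seen. EGR1 also holds the EGR1 site GCGNGGGCG, which 9.43% of all windows hold. The full CRE TGACGTCA (1.85% of all windows, and containing the core), the AP-1 site TGANTCA (7.71%) and the p53 decamer (6.63%) were in none of the 8. The windows of NR4A1 held no motif searched, and those of ATF3 held only a TATA box far upstream of its second start. Sites outside the windows and at other starts were not searched, and which starts A375 cells use was not tested. A motif missing from a window is therefore not shown to be missing from the gene's promoter.

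Levels in untreated cells differed widely between the genes. In DMSO at 24 h IER3, an early stress and survival gene, had the highest FPKM, a level per transcript length, at 71.7 ± 6.76 (SD, n = 3), followed by JUNB at 26.4 ± 5.74. FOSL1, which encodes the FRA-1 subunit of AP-1, followed at 14.6 ± 3.05 and IER2, a nuclear regulator, at 10.9 ± 1.26, and these neighbours overlapped between libraries. NR4A1 stood at 7.18 ± 1.00, JUN at 3.45 ± 0.562 and FOS at 2.48 ± 0.176. ATF3 stood at 1.58 ± 0.156, EGR1 at 0.744 ± 0.0869 and FOSB at 0.321 ± 0.0491. All other neighbours in this order did not overlap between libraries. Of the 3 Fos-type genes among the 10, FOSL1 had the highest FPKM, and FOSL2, which is not among them, read 2.13 ± 0.309.

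**Figure D1:**
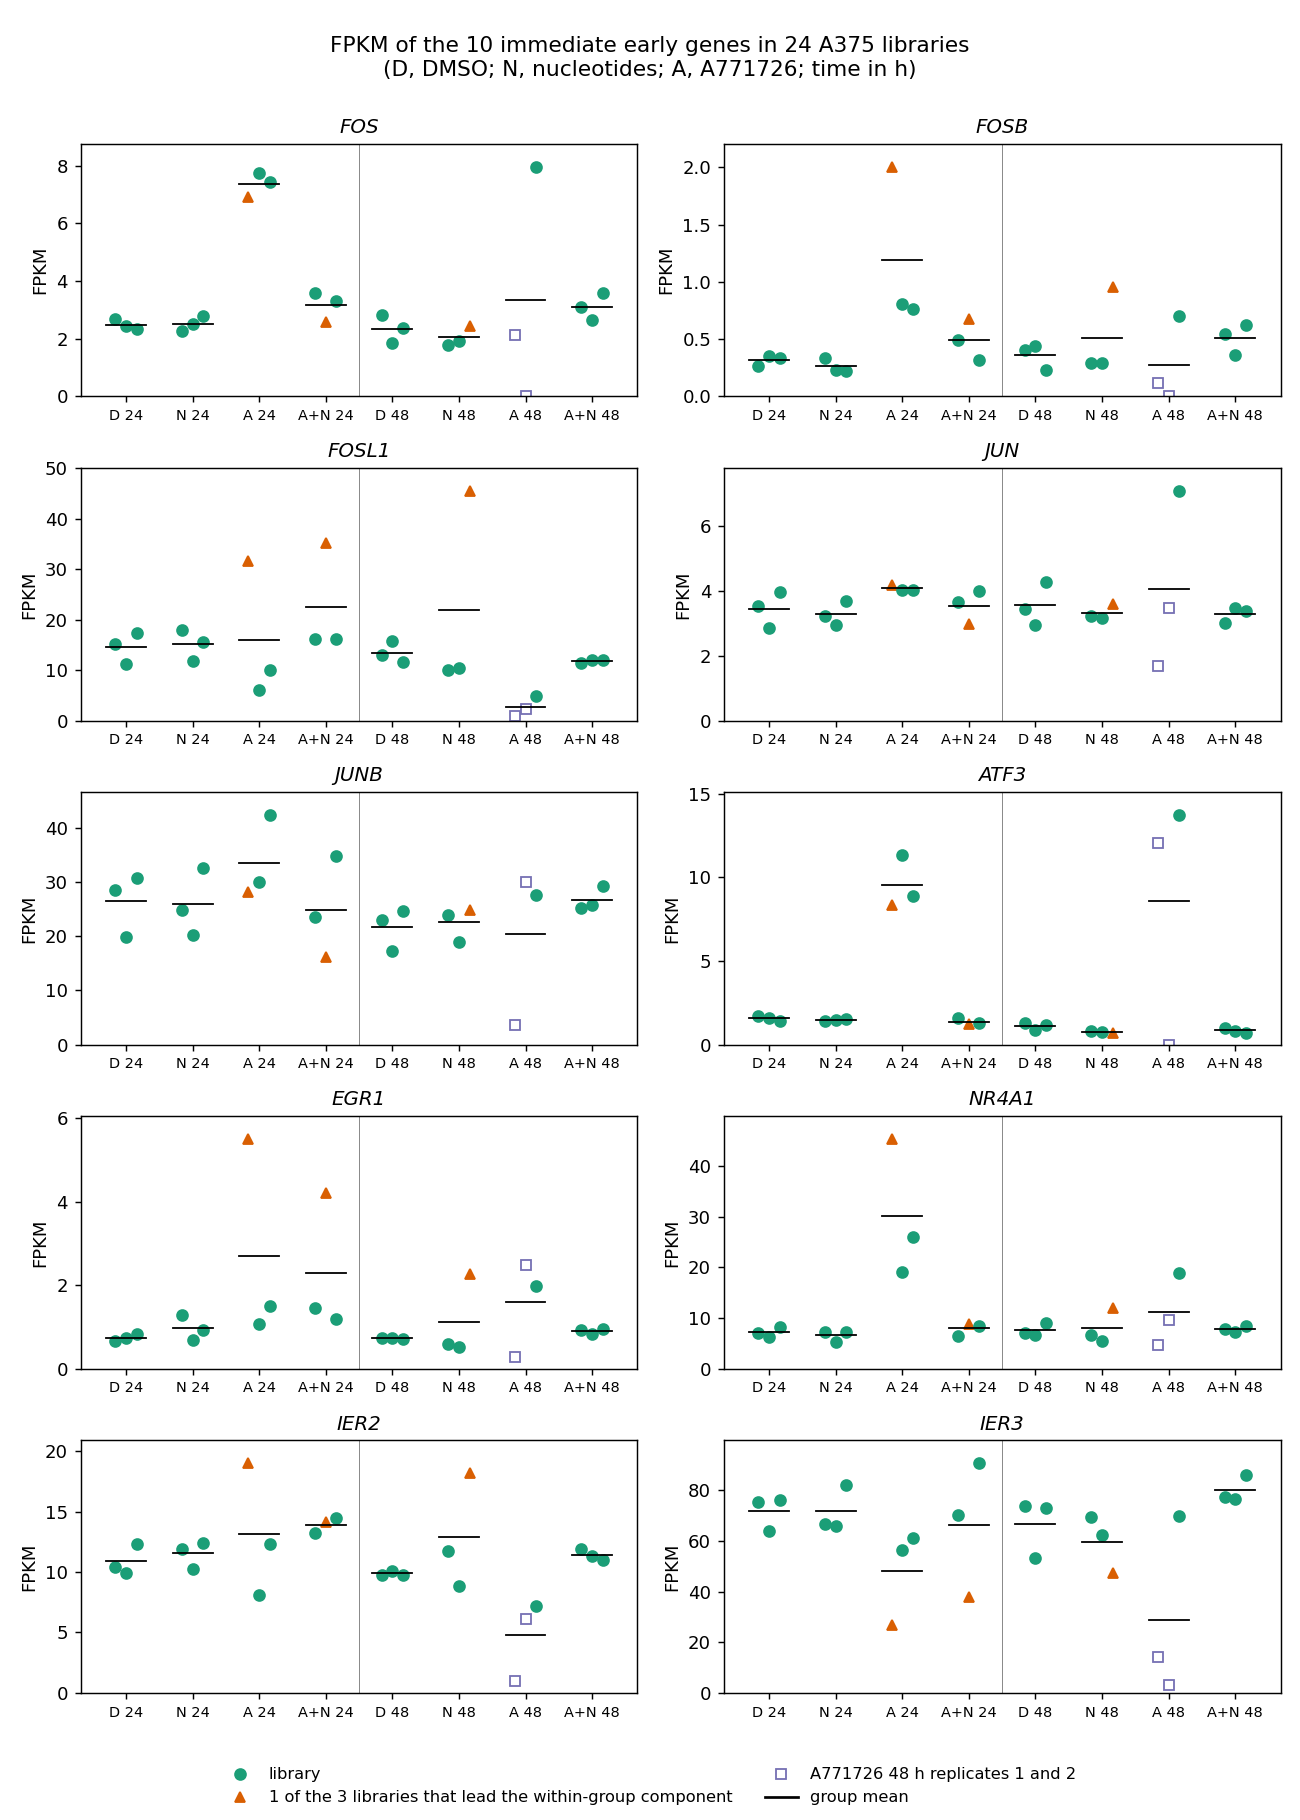
FPKM (linear axis from 0) of the 10 genes in each of the 24 libraries, by treatment and time, with a black line at each group mean. FOS, NR4A1 and ATF3 are high in all 3 libraries of A771726 at 24 h (ATF3 from 8.35 to 11.4), while orange triangles mark 3 libraries in which FOSL1 and EGR1 are the highest of their group.

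Across the series, 22 of 24 libraries had FPKM sums of 459325 to 773002 and 6757 to 7894 genes listed at 0. The exceptions were the first and second A771726 libraries of 48 h, whose sums were 231144 and 2283905. MIR3687, a microRNA gene, made up 60.8% of the latter. Comparisons without that group were therefore fitted on the other 21 libraries. The pigment cell markers SOX10 (24.7 to 36.2 FPKM in DMSO at 24 h) and S100B (25.3 to 27.5) were present, whereas TYR was listed at 0 and MLANA, DCT and PMEL were at or below 0.327 in that group. In bulk RNA, more cells with a transcript and more transcript per cell cannot be told apart.

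ATF3, NR4A1 and FOS were higher after 24 h of A771726 than after DMSO. ATF3, a CREB-family repressor induced by stress, read 1.73, 1.58 and 1.42 FPKM in DMSO and 8.35, 11.4 and 8.92 in A771726. Every treated library lay above every DMSO library. The change was 2.02 ± 0.106 (SE) on the log2(FPKM + 1) scale, with an adjusted p of 1e-09 by limma with Benjamini-Hochberg adjustment.

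NR4A1, an orphan nuclear receptor of the NUR77 type, read 7.03, 6.26 and 8.25 FPKM in DMSO and 45.3, 19.2 and 26.0 in A771726. The groups did not overlap, but replicate 1 was well above the other treated libraries. NR4A1 rose by 1.85 ± 0.263 (log2, SE; limma adjusted p = 7.2e-05).

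FOS, the founding Fos subunit, read 2.68, 2.43 and 2.34 FPKM in DMSO and 6.91, 7.75 and 7.42 in A771726. Its treated libraries lay close together, all above DMSO. FOS rose by 1.26 ± 0.123 (log2, SE; limma adjusted p = 1.3e-06).

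These 3 were 3 of the 9 members tested, with 0 lower, and over all 11493 genes 12.6% were called higher and 11.1% lower. The median change of the 9 was 0.33, against 0.02 over all genes tested. FOSB, a partner of JUN proteins, did not reach the filter of a mean of 1 FPKM. It read 0.265, 0.358 and 0.339 FPKM in DMSO and 2.00, 0.804 and 0.768 in A771726, so its libraries did not overlap. In a fit with no filter FOSB was called higher, by 0.69 ± 0.184 (log2, SE; limma adjusted p = 0.0157). Scaling each library to the same sum took the median change of all tested genes from 0.02 to 0.47 (log2; 12326 genes then passed the filter), and then EGR1 (1.38), JUN (0.64) and JUNB (0.83) passed as well. That scaling called 6459 genes higher and 267 lower, against 1450 and 1276 in the FPKM as deposited, and median-of-ratios scaling called 1095 and 1847. With all 24 libraries in 1 fit, NR4A1 was still called, while ATF3 and FOS had limma adjusted p of 0.157 and 0.308. These were the highest p of 17 alternatives for each gene, of which the other 16 called it, with p down to 6.9e-12 for ATF3 and 1.5e-08 for FOS.

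The other 6 tested genes did not pass. EGR1, a zinc finger activator of growth and damage responses, read 0.663, 0.733 and 0.836 FPKM in DMSO and 5.49, 1.08 and 1.501 in A771726. All treated libraries were above DMSO, with replicate 1 far above the others, and the change was 0.89 ± 0.37 (log2, SE; limma adjusted p = 0.0909). Without replicate 2 of A771726 it was 1.21, with an adjusted p of 0.0311, and over all 16 alternatives the p ran from 0.0231 to 0.591.

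JUN, the main partner of FOS, read 3.52, 2.85 and 3.97 FPKM in DMSO and 4.17, 4.002 and 4.03 in A771726. The groups did not overlap, by a narrow margin, and the log2 change was 0.20 ± 0.117 (SE; limma adjusted p = 0.244). JUNB, which often restrains JUN, read 28.6, 19.9 and 30.8 FPKM in DMSO and 28.1, 29.9 and 42.3 in A771726, which overlap.

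IER3 read 75.4, 63.9 and 75.9 FPKM in DMSO and 26.6, 56.2 and 61.1 in A771726. Every treated library was below DMSO, with replicate 1 the lowest, and the log2 change was -0.65 ± 0.291 (SE; limma adjusted p = 0.115). After each library's trend on GC content and length was removed, IER3 was called lower, at -0.61 (adjusted p = 0.0167, the lowest of 18 alternatives, which reached 1). Among all genes, 19.1% had all A771726 libraries above all of DMSO and 16% had all below.

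FOSL1 read 15.2, 11.3 and 17.3 FPKM in DMSO and 31.7, 5.98 and 10.1 in A771726. Replicate 1 was above every DMSO library and the other treated libraries were below all of them. IER2 read 10.4, 9.92 and 12.3 FPKM in DMSO and 19.0, 8.11 and 12.3 in A771726, which overlap. The log2 changes were -0.17 ± 0.518 for FOSL1 and 0.18 ± 0.226 for IER2 (SE).

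Nucleotides added to A771726 lowered the same 3 genes at 24 h. With both agents ATF3 read 1.57, 1.23 and 1.32 FPKM, NR4A1 read 6.57, 8.94 and 8.39, and FOS read 3.59, 2.57 and 3.30. Each lay below every library of A771726 alone, as did 14.4% of all genes. ATF3 changed by -2.14 ± 0.106, NR4A1 by -1.72 ± 0.263 and FOS by -1.02 ± 0.123 (log2, SE), with limma adjusted p of 4.5e-10, 0.000161 and 1.6e-05. No tested member was higher, and over all genes 6.09% were called higher and 11.4% lower. This comparison shares the 3 A771726 libraries with the one against DMSO, so opposite signs in the pair are not independent. FOSB read 0.492, 0.678 and 0.320 FPKM, below A771726 alone, with a log2 change of -0.51 ± 0.184 in the fit with no filter (limma adjusted p = 0.078). Scaling to equal sums took the median change of all tested genes from -0.03 to -0.26, and JUN and JUNB then passed as lower. The split of all called genes was 700 higher and 1313 lower as deposited, 1058 and 929 under median-of-ratios, 945 and 1018 under quantile and 316 and 3255 under equal-sum scaling.

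The size of the A771726 effect differed between cells without and with added nucleotides for these genes. The effect without nucleotides (A771726 minus DMSO) exceeded the effect with them (A771726 with nucleotides minus nucleotides) by 2.10 ± 0.15 for ATF3, 1.62 ± 0.372 for NR4A1 and 1.03 ± 0.174 for FOS (log2, SE). Their limma adjusted p were 1.4e-07, 0.0113 and 0.00127, and 4.88% of all genes passed in this direction. None of the other 6 tested members passed, and with all 24 libraries in 1 fit no member did.

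When nucleotides were present, no tested member passed for A771726 against nucleotides alone at 24 h, where 0.0348% of all genes did by limma. At an unadjusted p under 0.05 there were 274 genes and 0 members. FOS read 2.26, 2.51 and 2.78 FPKM in nucleotides, which overlaps the group with both agents, and the log2 difference was 0.24 (95% interval -0.02 to 0.50). For NR4A1 the interval ran from -0.32 to 0.79 and for ATF3 from -0.30 to 0.15, so a remaining rise of NR4A1 of up to that size is within the error. IER2 read 13.2, 14.1 and 14.5 FPKM with both agents and 11.9, 10.3 and 12.4 in nucleotides, without overlap (0.25, log2). The share of all genes separated so at 24 h is not given. At 48 h the same comparison again called no tested member, and 0.0261% of all genes, with 327 genes and 1 member, FOS, at an unadjusted p under 0.05. There FOS read 1.77, 1.93 and 2.43 FPKM in nucleotides and 3.11, 2.65 and 3.58 with both agents. These groups did not overlap. The same held for JUNB (0.24) and IER3 (0.43, log2), so 3 of 9 tested members were separated this way, as were 5.82% of all genes. FOS differed by 0.43 (log2, 95% interval 0.17 to 0.69), with a limma adjusted p of 0.675. Nucleotides alone changed no tested member against DMSO, by limma, at 24 h (0.0087% of all genes called, and 33 genes and 0 members at an unadjusted p under 0.05) or at 48 h (0% called, and 127 genes and 1 member, ATF3 at -0.25, at an unadjusted p under 0.05).

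**Figure D2:**
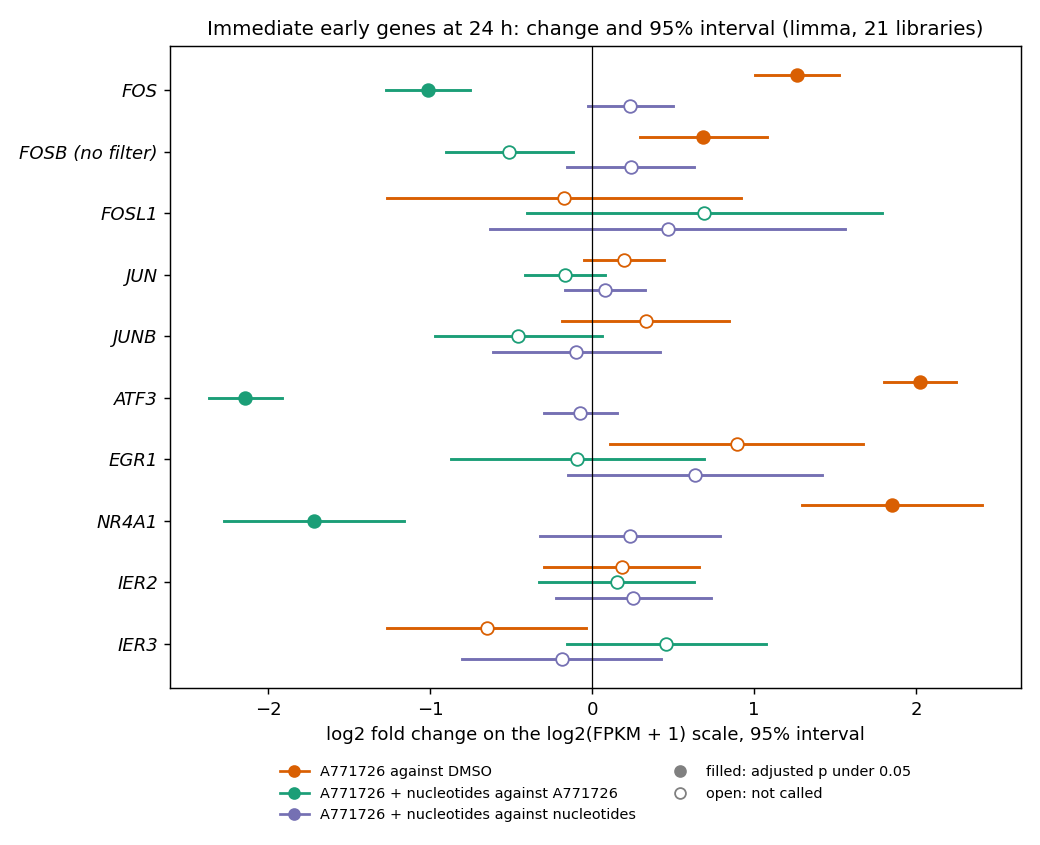
Log2 change on the log2(FPKM + 1) scale with its 95% interval for each gene in 3 comparisons at 24 h; filled points have a limma adjusted p under 0.05, and FOSB is from the fit with no filter. ATF3, NR4A1 and FOS lie right of 0 for A771726 against DMSO (2.02, 1.85 and 1.26) and left of 0 when nucleotides are added, and all intervals of the third comparison include 0.

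Between 24 and 48 h ATF3 levels were compared in the 3 treatments other than A771726 alone. ATF3 read 1.29, 0.874 and 1.16 FPKM in DMSO at 48 h and 0.849, 0.736 and 0.731 in nucleotides. With A771726 and nucleotides it read 1.02, 0.837 and 0.710. In each of these treatments all 48 h libraries lay below all 24 h libraries (nucleotides at 24 h read 1.44, 1.49 and 1.56), as did 11.5%, 11% and 9.96% of all genes in the respective comparisons. With both agents FOSL1 (-0.78), EGR1 (-0.67) and IER2 (-0.27, log2) were separated in the same way, and the remaining members overlapped. In DMSO and in nucleotides FOSL1, EGR1 and IER2 overlapped between the times.

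The log2 change of ATF3 with time was -0.29 ± 0.106 in DMSO, -0.49 ± 0.106 in nucleotides and -0.36 ± 0.106 with both agents (SE). Only the change in nucleotides passed, with a limma adjusted p of 0.0271, and 1.37% of all genes did, against 1.77% in DMSO and 1.99% with both agents. That call was lost when any of its 6 libraries was left out, with adjusted p of 0.0637 to 0.114. Averaged over the 3 treatments, a contrast chosen after these values were seen, ATF3 fell by 0.38 (SE 0.0613; limma adjusted p = 0.000502), and 5.73% of all genes fell. None of the other 8 tested members passed in the averaged contrast, in which NR4A1 changed by 0.09 and FOS by -0.10 (log2).

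At 48 h of A771726 alone, the libraries disagreed. ATF3 read 12.1, listed at 0, and 13.7 FPKM in replicates 1, 2 and 3, and FOS read 2.13, listed at 0, and 7.95. NR4A1 read 4.72, 9.69 and 19.0 and JUN read 1.66, 3.46 and 7.06. Replicate 3 had an FPKM sum like those of the other groups. In it ATF3, FOS, NR4A1, JUN, EGR1 (1.99), FOSB (0.6995) and JUNB (27.5) were above every DMSO library of 48 h. This rests on 1 library, and the share of all genes placed so was not counted. JUN read 3.44, 2.94 and 4.26 in those DMSO libraries. FOSL1 and IER2 were below all of them in that replicate, and IER3 was within their range.

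With all 24 libraries, ATF3 was called higher than in DMSO at 48 h, by 1.46 ± 0.605 (log2, SE; limma adjusted p = 0.0465), as were 4.24% of all genes. That call was lost without any 1 of DMSO replicates 1, 2 and 3 and A771726 replicates 1 and 3 (changes of 0.78 to 1.52), and was 2.72 without A771726 replicate 2. It was lost also at a pseudocount of 0.1, with no filter and under equal-sum scaling, and 8 of 18 alternatives made it. FOSL1 (-2.10), IER2 (-1.17) and IER3 (-2.02) were called lower, as were 53.2% of all genes, so 3 of 9 is no more than the background. That background moved with the scaling: 511 genes were higher and 6404 lower as deposited, 1462 and 2768 under median-of-ratios, 1951 and 2410 under quantile and 1016 and 2883 under equal-sum scaling. The median change of all tested genes was -0.87, -0.36, -0.07 and -0.69 (log2) in that order. The call of IER2 was lost without A771726 replicate 1 (-0.51) and that of IER3 without replicate 2 (-1.04). Under median-of-ratios and under quantile scaling neither IER2 nor IER3 passed, while JUN (0.60 and 0.84) and NR4A1 (1.00 in both) were called higher, so the genes called changed with the scaling. FOSL1 passed under median-of-ratios (-1.58) but not under quantile (-1.36), where FOS was called higher (0.86). IER3 did not pass under equal-sum scaling (-1.86). Against A771726 with nucleotides at 48 h, 4 of 9 members differed, and against A771726 at 24 h 5 of 9, where 57.3% and 58% of all genes did. These comparisons share the A771726 libraries of 48 h. With replicate 3 as the only A771726 library, ATF3 was 2.81, FOS 1.43, NR4A1 1.22 and JUN 0.84 higher (log2). In that fit IER3 differed by 0.08, FOSL1 by -1.30 and IER2 by -0.41, and the median change of all tested genes was -0.26. A group of 1 library has no spread of its own, so no p-value is given for these differences. FOSL1 read 0.986, 2.22 and 4.79 FPKM in the 3 A771726 libraries of 48 h, the lowest level of FOSL1 in any group. With only the 2 groups compared in the fit, no member passed (ATF3 adjusted p = 0.399, the highest of 18 alternatives, whose lowest was 8.9e-11).

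Ranked by group median over all 8 groups, A771726 at 24 h came first for FOS, FOSB, JUN and NR4A1 and did not overlap with the group that followed. Single libraries of other groups still reached that level: JUN in DMSO replicate 3 of 48 h (4.26) and FOS in A771726 replicate 3 of 48 h (7.95) were above all 3, JUN in that A771726 library (7.06) as well, and FOSB in nucleotides replicate 3 of 48 h (0.952) was above 2 of 3. The lowest JUN library of A771726 at 24 h read 4.002 FPKM, and the highest of the next group, A771726 with nucleotides at 24 h, read 3.97. That JUN difference did not pass (limma adjusted p = 0.384). The share of all genes separated in this way was not counted. For ATF3, A771726 at 48 h came first and at 24 h second, at medians of 12.1 and 8.92 FPKM although 1 library at 48 h was listed at 0, and the 6 other groups lay between 0.736 and 1.58. JUNB medians ran from 22.97 to 29.9 FPKM, and no neighbours in its order were separated. EGR1 medians ran from 0.600 to 1.99 FPKM, IER2 from 6.13 to 14.1 and IER3 from 14.1 to 77.2. FOSL1 medians ran from 2.22 to 16.2, with A771726 last at both times.

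Within groups, 3 libraries deviated most, namely replicate 1 of A771726 at 24 h, replicate 2 of A771726 with nucleotides at 24 h and replicate 3 of nucleotides at 48 h. They had the 3 highest scores on the first component of the deviations of all tested genes from their group means, which held 21.7% of the variance within groups. FOSL1 read 31.7, 35.3 and 45.5 FPKM in them, and 5.98 to 16.2 in the other libraries of the same groups. EGR1 read 5.49, 4.21 and 2.27 there, against 0.517 to 1.501 in the others. FOSL1, EGR1, FOSB and NR4A1 were the highest of their group in all 3, which is 4 of 10 members, against 24.9% of tested genes. IER3 and ATF3 were the lowest in all 3, against 20.0% of tested genes, and IER3 read 26.6, 38.0 and 47.3. Their FPKM sums, 459325, 573390 and 597569, were each the lowest of their group, and the part of this in the results was not tested.

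Without these 3 libraries, a fit added after seeing the data, ATF3, FOS and NR4A1 were still called higher in A771726 than in DMSO at 24 h, by 2.11, 1.30 and 1.52 (log2). FOSL1 was then called lower, at -0.81 (limma adjusted p = 0.00902), and called higher with nucleotides added, at 0.96 (adjusted p = 0.00692). These were the lowest p of 18 alternatives for each, whose highest was 1. The 2 A771726 libraries that remain read 5.98 and 10.1 FPKM, below all libraries of DMSO. With the 3 libraries in, neither difference of FOSL1 passed. FOSL1 was the highest of its group in each of the 3 libraries left out. Its calls without them therefore rest on a choice tied to its own values and are no separate test.

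**Figure D3:**
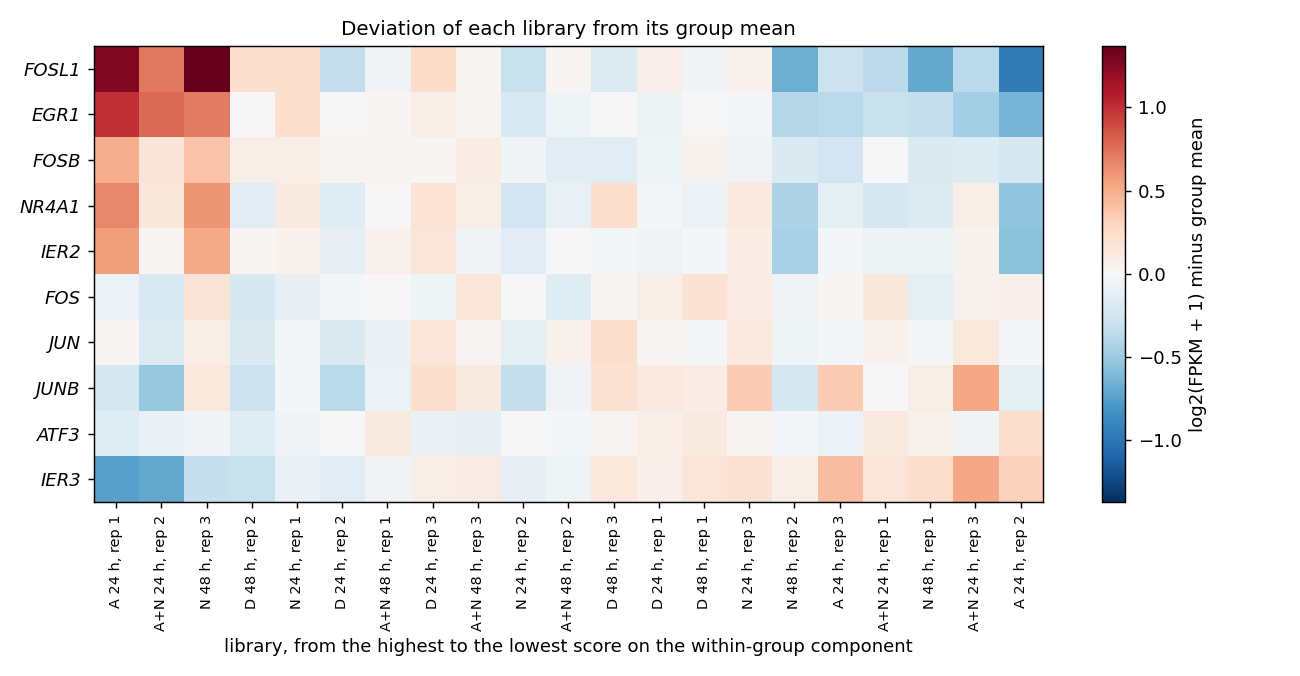
Deviation of log2(FPKM + 1) from the group mean for the 10 genes (rows) in 21 libraries (columns), ordered by their score on the first within-group component; red is above and blue below the group mean. The 3 libraries at the left show FOSL1 and EGR1 high and IER3 low, while JUN deviates little in any column.

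Several pairs of members varied together over the 21 libraries, which share treatments, scaling and the component above. As a description, Pearson's r was 0.91 for FOS with ATF3, 0.85 for FOS with NR4A1 and 0.84 for NR4A1 with ATF3, with n of 21 libraries. It was 0.83 for FOSL1 with IER2, 0.74 for FOSL1 with EGR1, 0.77 for EGR1 with IER2 and 0.75 for JUN with JUNB. FOSB had an r of 0.87 with NR4A1 and 0.82 with EGR1, but 0.60 with ATF3, 0.59 with IER2 and 0.45 with FOSL1. Without the 3 libraries FOSL1 with EGR1 came to 0.14, and EGR1 with IER3 went from -0.81 to 0.07, while FOS with ATF3 was 0.89. In those 18 libraries FOSB was at 0.75 with NR4A1, 0.57 with EGR1, 0.65 with ATF3, -0.11 with IER2 and -0.50 with FOSL1. Spearman values were lower, at 0.49 for FOS with ATF3, 0.52 for FOS with NR4A1 and 0.14 for NR4A1 with ATF3.

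Neighbours were ranked among tested genes other than the members. Genes with symbols of types such as MIR, SNOR, LOC, LINC and MT- were left out of this ranking, and some may correlate more strongly. Among the genes ranked, those most like ATF3 over the 21 libraries were TXNIP, GADD45A and ATP6V0A4 (Pearson's r of 0.98 for each). FOS was most like FHOD3, SAT1 and HLA-DOA (0.96, 0.95 and 0.95), NR4A1 like TSPAN11, ARNT2 and SLC12A4 (0.97, 0.96 and 0.96), and FOSB like PMEPA1 and GAREM (0.95 and 0.94). The genes most like EGR1 were NR1D1, SASH1 and BRPF3 (0.97, 0.96 and 0.95), and those most like FOSL1 were PPRC1, PAPD7 and CTDNEP1 (0.97, 0.97 and 0.96). IER2 went with BRD1, RUSC2 and P4HB (0.93, 0.92 and 0.92) and IER3 with ATP5G2, EDF1 and TXNL4A (0.98, 0.97 and 0.97). JUN went with PLA2G15, JOSD2 and ENGASE (0.89, 0.88 and 0.88) and JUNB with TYSND1, PIM2 and CHTF18 (0.96, 0.95 and 0.95).

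Other AP-1 and ATF subunits changed in both directions under A771726 at 24 h, with 3 of 13 tested genes higher and 2 lower, against 12.6% and 11.1% of all genes. CREM, a CRE-binding modulator, rose by 1.29 ± 0.176, JUND, the JUN-type subunit of resting cells, by 0.99 ± 0.254 and MAFK, a small MAF protein, by 0.62 ± 0.202 (log2, SE). ATF4, the transcription factor of the integrated stress response, fell by 1.22 (SE 0.171), from 211 ± 12.6 to 91.8 ± 20.7 FPKM (SD, n = 3), while ATF3 rose. ATF1 (-0.03) and MAFG (0.07) did not pass. The limma adjusted p of CREM, ATF4, JUND and MAFK were 4.8e-05, 6.4e-05, 0.00935 and 0.0335. With nucleotides added, CREM, JUND and MAFK were lower (-1.41, -0.97 and -0.64) and ATF4 higher (0.89) than with A771726 alone, each past the test.

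Of 34 other immediate early genes tested, 10 were higher and 3 lower (12.6% and 11.1% of all genes), with a median change of 0.29 against 0.02 over all genes. BTG2, an antiproliferative p53 target, rose by 2.69 ± 0.111 (log2, SE), from 1.45 ± 0.0932 to 14.8 ± 1.96 FPKM (SD, n = 3; limma adjusted p = 5.8e-11). IER5, a regulator of heat shock transcription, rose by 1.21 ± 0.178, PLK3, a stress kinase, by 1.17 ± 0.132 and GADD45A, a growth arrest and DNA damage gene, by 1.00 ± 0.0936, with limma adjusted p of 9.8e-05, 6.7e-06 and 8.1e-07. ID1 (-0.47) and ERRFI1 (0.09) did not pass. With nucleotides added, 11 of the 34 were lower and 2 higher than with A771726 alone, against 11.4% and 6.09% of all genes. BTG2 changed by -2.80 and IER5 by -1.42.

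Upstream factors and kinases, such as SRF, the ELK proteins and the MEK and MAP kinases, had 0 of 21 tested genes called by limma in either direction, among them MAP2K2 (0.00). Over all genes 12.6% were called higher and 11.1% lower. At an unadjusted p under 0.05, 3 of these 21 were found (RPS6KA1, RPS6KA5 and MAP2K7, named after their values were seen), and 4190 of all 11493 genes. Of the genes that ERK activity induces to restrain it, 2 of 12 were higher and 2 lower, near the 12.6% and 11.1% of all genes. The phosphatase DUSP4 rose by 0.71 and the ETS factor ETV4 by 0.50, whereas the ERK phosphatase DUSP6 fell by 0.41 and the signalling inhibitor SPRY2 by 0.34 (log2). Their limma adjusted p were 9.6e-05, 0.00761, 0.00181 and 0.00228, and SPRED1 (-0.07) and ETV5 (0.00) did not pass. AP-1 target genes had 2 of 8 higher and 1 lower, counts too small to set apart from those shares, with TIMP1, a protease inhibitor, up by 0.98, the cytokine LIF up by 0.48 and cyclin D1 (CCND1) at -0.68.

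Heat shock genes, which encode chaperones and which handling of cells can also induce, are given beside the early genes. None of 12 was higher and 5 were lower in A771726 at 24 h, against 12.6% and 11.1% of all genes. The part of handling in the results was not tested. HSPA8, the constitutive chaperone, fell by 1.75 (SE 0.14), HSPA1A by 0.91, HSPE1 by 0.88 and HSP90AB1 by 0.75 (log2; limma adjusted p of 1.2e-07, 0.0102, 0.00167 and 0.0483). HSPA1A shares nearly all its sequence with HSPA1B, so its value is uncertain. HSP90AA1 (0.29) and HSPH1 (-0.05) did not pass.

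Markers of other cells moved with the 3 genes in part. The summed FPKM of 10 leukocyte markers was 24.2 to 37.3 in A771726 at 24 h against 7.54 to 8.64 in DMSO, and both that passed the filter, LYZ (1.65) and CD68 (1.80, log2), were called higher. The defining leukocyte genes PTPRC and CD3E were at or below 0.0248 FPKM in those libraries, and CD3E was listed at 0 in all 3 of DMSO. Fibroblast and endothelial markers summed to 5.14 to 5.82 FPKM against 2.24 to 2.47, with LUM and PDGFRB called higher, and COL1A1 at or below 0.239. The part of these markers in the results was not tested. The 7 keratinocyte markers summed to 11.5 to 16.0 against 13.1 to 15.4, and 0 of 2 tested were called by limma or had an unadjusted p under 0.05. The melanoma markers summed to 151 to 240 against 125 to 153, with MITF (0.85) and S100A1 (1.01) called higher of 7 tested.

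**Figure D4:**
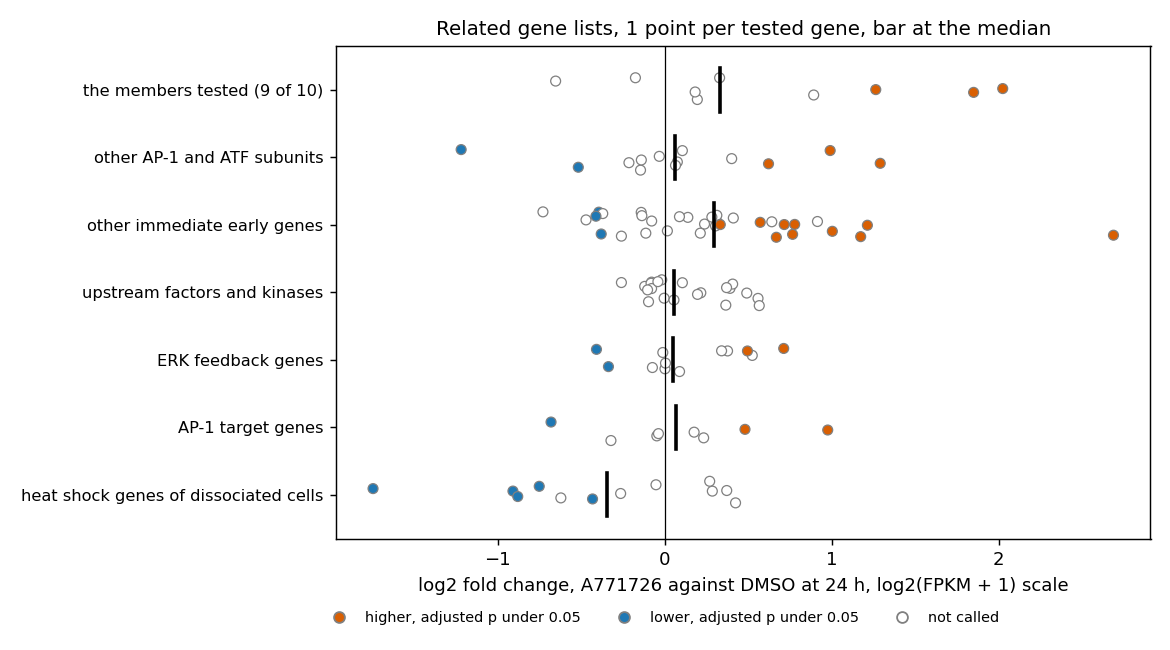
Log2 change of A771726 against DMSO at 24 h for every tested gene of the lists, with a black bar at each list's median; orange and blue points have a limma adjusted p under 0.05. The 9 tested members, without FOSB, and the other immediate early genes have medians of 0.33 and 0.29, the upstream kinases none called, and the heat shock genes called are all lower.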

How the data were processed

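RNA-seq of A375 was rRNA-depleted and paired-end, per the labels. Per the submitters' processing notes the tools were cutadapt, TopHat2 2.0.11 and Cufflinks 2.2.1 with hg19; gene annotation, filters and strand are not stated in the sources. The authors deposited FPKM per gene for 24 libraries and no counts, so depth is unknown and no count test was possible. Values were analysed here as log2(FPKM + 1), which understates changes of low genes, for genes whose mean over the fitted libraries reached 1 FPKM. The tests used limma 3.58.1 (R 4.3.3) and p adjusted (Benjamini-Hochberg) over all tested genes, called under 0.05. The main fit used 21 libraries, and comparisons with A771726 at 48 h used 24. The fits were tested on simulated data. The genes, lists and tests were chosen with earlier results of these data known. Of the other lists, up to 4 called genes by size of change and up to 2 not called by mean FPKM are named in the comparison with DMSO at 24 h, and 3 neighbours by Pearson's r for each member. A few genes that this rule names are not reported here. Same-numbered DMSO libraries of 24 and 48 h deviated together (correlations of 0.13 to 0.30), which holds in 1 of 12 comparisons. A smaller component that went with the replicate number in every fitted group is described in the closing section. Promoters came from RefSeq (GRCh38.p14), and transcript GC content and length from GENCODE 29, matched by symbol for 94.2% of tested genes. The alternatives are given in the closing section.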

Additional observations from a re-analysis of the deposited data

Results flagged for a closer look

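The effect of A771726 at 24 h differed between cells without and with added nucleotides, by limma's interaction term, for 3 of the 9 tested immediate early genes, and each effect was larger without nucleotides. The difference of the log2 changes was 2.10 for ATF3, 1.62 for NR4A1 and 1.03 for FOS.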

How the results depend on the processing

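Counts are of members called. For A771726 against DMSO at 24 h (3 called), a mean of at least 5 FPKM left NR4A1 alone tested among them (1), equal-sum (TPM) scaling gave 6 and all 24 libraries 1. The same settings gave 1, 5 and 1 for A771726 with nucleotides against A771726 (3), and the interaction (3) went to 1 under the 5 FPKM filter and 0 with 24 libraries. Leaving out each library gave 3 to 4, 3 to 4 and 3. ATF3 in nucleotides over time (1) went to 0 under the 5 FPKM filter, with 24 libraries, in the 2 groups alone, and in every leave-one-out (0 to 0). ATF3 with both agents over time (0) went to 1 at a pseudocount of 0.1, under TPM scaling, with GC and length trend removed and in the replicate block. For A771726 at 48 h against DMSO (4), TPM scaling gave 2 and the 2 groups alone 0, and leaving out each library 3 to 4. Against A771726 with nucleotides (4) the 2 groups alone gave 0. Against A771726 at 24 h (5) median-of-ratios and quantile gave 2 each, GC and length removal 1, the 2 groups alone 0, and leaving out each library 4 to 8. The fit with 22 libraries leaves 1 A771726 library at 48 h, so its counts are not given. Pairs of members with r over 0.7 were 9 of 45, 3 by Spearman and 19 over the 7 group means. Where no cause follows from the setting itself, the cause was not tested.

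With the replicate block, the count for A771726 against DMSO was 3 again, and JUNB also passed for A771726 with nucleotides against A771726 (4 called). JUNB was highest in replicate 3 in all 7 groups, as were 3.26% of tested genes. Same-numbered libraries correlated by over 0.1 in every pair in the DMSO comparison alone, where the block changed no member call. The second within-group component (14.2% of the variance) was nevertheless above 0 in every replicate 2 (0.0801 to 0.337) and below 0 in every replicate 3 (-0.334 to -0.136) of the 7 groups. Deviations also sloped with GC content, at -0.160 to -0.071 log2 per 10% GC in every replicate 2 and 0.099 to 0.187 in every replicate 3. Replicates 2 and 3 thus each shared a deviation across the 7 groups, which the main fit does not model. What the numbers mark was not tested. All called genes were 2726 for A771726 against DMSO, 4173 with the block, 4380 with GC and length removed, 6726 under TPM scaling, 1616 at 5 FPKM, 1065 in the 2 groups alone and 114 with 24 libraries.

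Signs changed for values that had not passed, except IER2 and IER3 at 48 h. FOSL1 against DMSO at 24 h was 0.30 under TPM scaling and -0.81 to 0.31 with libraries left out, and IER2 was -0.10 in 18 libraries and -0.10 to 0.46 with libraries left out. ATF3 in A771726 with nucleotides against nucleotides was 0.057 under TPM scaling and 0.022 with GC and length removed. At 48 h against DMSO, FOS was 0.34 (median-of-ratios), 0.31 (TPM), 0.86 (quantile), 0.88 (GC and length), 0.67 (23 libraries), 1.43 (22 libraries) and -0.91 to 0.67 with libraries left out. JUN was -0.019 at a pseudocount of 0.1 and -0.39 to 0.41 with libraries left out, and NR4A1 -0.13 to 0.77. IER2, which had passed, was 0.042 with GC and length removed, and IER3, which had passed, 0.077 in 22 libraries. Depth is unknown, so no floor for the lowest genes, FOSB and EGR1, can be given.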
